A study of Homo sapiens with 2 samples.

Results

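The genes described here encode proteins of the cytosolic ribosome and the factors that start, carry and end translation on it. They were chosen by symbol: every gene whose single symbol in the probe annotation begins with RPL, RPS, EIF or EEF, and ETF1, without RPS6K genes and without symbols that end in P plus digits, RPLP1 excepted. This gave 47 of the 2792 genes in the table. They comprised 16 proteins of the large ribosomal subunit, 9 of the small subunit, 18 genes with an EIF symbol, 3 elongation factor genes and the release factor gene ETF1. The ending in P plus digits, meant for pseudogenes, also left out 3 protein-coding genes, EIF4EBP2, EIF4EBP3 and RPS19BP1. In the other direction the prefix took in EIF2C2 and EIF2C3, older symbols of AGO2 and AGO3. These are Argonaute proteins of microRNA silencing and no initiation factors. The EIF prefix also covers EIF2AK2 and EIF2AK4, kinases that act on eIF2, and EIF4A3, a helicase of the exon junction complex, so "initiation factors" below means genes with an EIF symbol.

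HepG2, a human hepatoma cell line, was grown on collagen. The knockdown cells received an LNA, an antisense oligonucleotide with locked nucleotides, directed at the noncoding RNA TUC338, and the control cells a control LNA. RNA from each condition was hybridised to 1 Affymetrix exon array, on which a gene is measured by several probe sets. With 1 array per condition, every difference below compares 2 arrays, has no replicate check and carries no p-value. The SDs are over the probe sets of a gene on the same 2 arrays.

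A ribosome is built from a small subunit, which reads the mRNA, and a large subunit, which joins amino acids. eIF2 brings the initiator tRNA to the small subunit, eIF3 and the eIF4 factors load it on the mRNA, eIF5 and eIF5B complete the joining of the subunits, the eEF1 and eEF2 factors drive elongation, and eRF1, the product of ETF1, recognises stop codons. Stress-activated kinases phosphorylate eIF2 and thereby block eIF2B, the exchange factor that recharges it. Messages of ribosomal proteins and of several factors begin with a cytosine followed by a run of pyrimidines (5′ terminal oligopyrimidine, or TOP), through which mTORC1 controls their translation.

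Because that start is a known shared feature of the family, the annotated transcript starts were read from a set of RefSeq promoter sequences (GRCh38.p14). In this set 38 of the 47 genes had an entry. AGO2, EEF1D, EIF3A, EIF3E, RPL5, RPL8, RPL23, RPL23A and RPL30 had none in the set, although RefSeq lists them as protein-coding genes. A pyrimidine start was called where a C followed by at least 4 pyrimidines (C or T) began within 3 bases of an annotated start of the gene, read in the direction of the transcript. Of the 20 ribosomal protein genes with an entry, 18 had one (90%), and of the 18 factor genes 6 had one (33.3%). Among all 2372 genes of the table with an entry the share was 19.5%, and among all 27305 genes with an entry in the set it was 16%. The windows below run from 10 bases before the annotated start to the 15th base of the transcript, 5′ to 3′, with the pyrimidine run in capitals. The first set, 10 genes chosen for having such a start, shows what it looks like in 6 ribosomal protein genes and 4 factor genes:
RPL13A (chr19:49487598-49487622, plus strand): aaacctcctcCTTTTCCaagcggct
RPL28 (chr19:55385922-55385946, plus strand): cctcgccttcCTCTTTCCgtctcag
RPS6 (chr9:19380222-19380246, minus strand): gaagttggccCTCTTTTCCgtggcg
RPS10 (chr6:34426055-34426079, minus strand): catgctccttCCTTTCCagccccgg
RPS21 (chr20:62387093-62387117, plus strand): ctagctgcttCCTTTCTCTCTCgcg
RPLP1 (chr15:69452808-69452832, plus strand): ggcgcgagagCCCCTTTCCTCagct
EEF1A1 (chr6:73521018-73521042, minus strand): cgtgaacgttCTTTTTCgcaacggg
EIF3F (chr11:7987327-7987351, plus strand): cttccgcctcCTTCTTTCTCgacaa
EIF2S3 (chrX:24054946-24054970, plus strand): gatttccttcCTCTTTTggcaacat
EIF2A (chr3:150546777-150546801, plus strand): cgagcggtttCTCTTTCCgggacaa

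The next windows have no such run at the start. They are those of the 5 genes that lay farthest from the median gene in this comparison (for EIF5, its upstream annotated start) and of RPL4 and RPL9, the ribosomal protein genes called without it:
EIF2AK2 (chr2:37156966-37156990, minus strand): aggggaaaacgaaactgagaaccag
EIF2AK4 (chr15:39934105-39934129, plus strand): gcccgtccccagcgcggagccccgc
EIF5B (chr2:99337379-99337403, plus strand): ctgagaactcacaccatatgtgtcc
EIF5 (chr14:103334227-103334251, plus strand): ggcgttgttcagtcagagcgagaac
EIF2B2 (chr14:75002911-75002935, plus strand): cgcccgccccggaagtgcaaactgt
RPL4 (chr15:66504841-66504865, minus strand): cgggagtggtaagcacttccttttc
RPL9 (chr4:39458908-39458932, minus strand): taatgacgacagacgttctttcttt

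RPL4 and RPL9 both have a pyrimidine stretch a few bases farther in, beyond the distance allowed, and annotated starts can be off by some bases. In the whole window of 300 bases, 250 before and 50 after the start, the motif CGGAAG, the core of ETS factor sites, occurred on either strand, at any annotated start of a gene, in 65% of the 20 ribosomal protein genes, 44.4% of the 18 factor genes and 42.5% of the genes of the table. AAGATGG, a core of YY1 sites, occurred in 15%, 16.7% and 11%, and the TATA sequence TATAAA in 5%, 0% and 7.55%. Of the 18 factor genes, 0 held TATAAA. These are matches of letters, and binding was not measured.

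The knockdown array was the brighter one, with a median intensity of 507 against 422 over 45200 probe sets, and the median gene was 0.28 (log2) higher on it, or 1.22-fold. Differences are therefore given relative to the median gene, as the mean over a gene's probe sets of knockdown minus control minus 0.28, unless called deposited differences. Values at or by the brightest probe set are its knockdown minus control minus 0.20, the median of that measure over genes. Their zero therefore differs from that of the other values. In deposited values 44 of the 47 genes were higher on the knockdown array and 3 were lower, and 83% of all genes were higher. Of the 14 hepatocyte markers looked for, 6 were in the table. Their mean levels lay between 9.98 and 12.97 (log2 intensity) on the control array and between 10.53 and 13.02 on the knockdown array, with albumin (ALB) at 12.35 and 12.55. PCBP2, the host gene of TUC338, was lower by a mean of -0.89 ± 0.35 over 13 probe sets.

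The 47 genes stayed close to the median gene. Their median difference was -0.06, with 14 above and 33 below the median gene. By the brightest probe set, after quantile normalization and after a loess fit on level, 20 were above it. For 38 of the 46 genes with more than 1 probe set the mean was smaller than the SD over the gene's own probe sets. The same share was not computed over all genes. At 1.2-fold or more (0.26 on the log2 scale), 2 genes were higher and 3 lower, and at 1.5-fold 0 were either. Over all 2792 genes 16.4% passed 1.2-fold on the high side and 18.5% on the low side, while 2.26% and 3.9% passed 1.5-fold. The 5 genes past 1.2-fold were the factor genes EIF2B2 and EIF5 on the high side, and the eIF2 kinase genes EIF2AK2 and EIF2AK4 with the factor gene EIF5B on the low side.

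**Figure D1:**
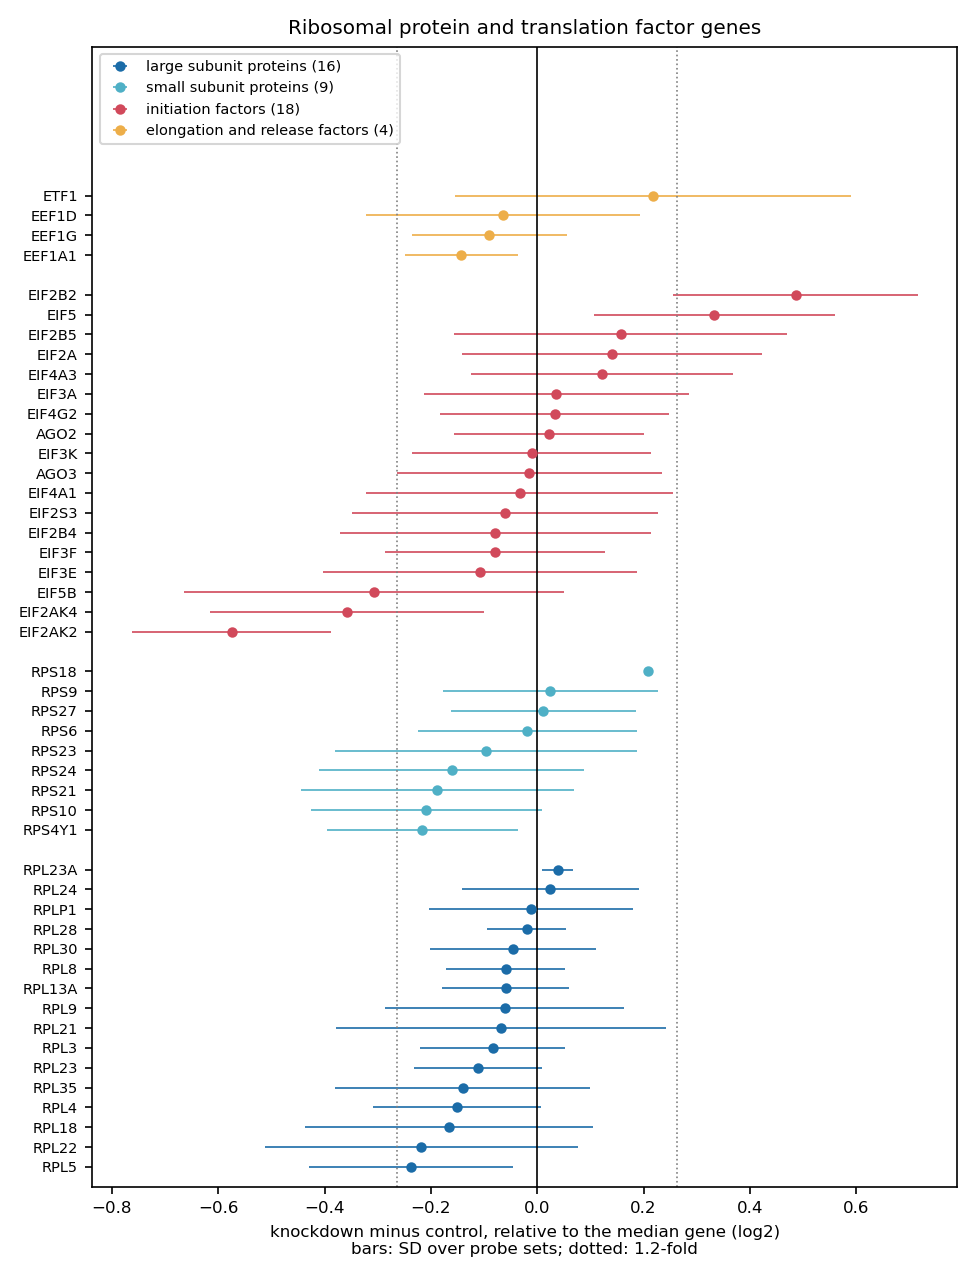
Difference of each of the 47 genes, knockdown minus control relative to the median gene on the log2 scale (points, mean over probe sets; bars, SD over probe sets, none for RPS18 with 1 probe set), grouped by role. The 25 ribosomal protein genes lie between -0.24 and 0.21, inside the dotted lines at 1.2-fold, and the 5 genes beyond them are EIF2B2, EIF5, EIF5B, EIF2AK4 and EIF2AK2.

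The proteins of the large subunit lay just below the median gene. Their median was -0.06 over 16 genes, with 2 above and 14 below, and the range was -0.24 (RPL5) to 0.04 (RPL23A). The median came nearer to the median gene after quantile normalization (-0.03) and after a loess fit on level (-0.02). RPL5, which with RPL11 and 5S rRNA forms the particle that binds MDM2, had a mean level of 12.48 (log2 intensity) on the control array and 12.53 on the knockdown array. Its deposited difference of 0.05 became -0.24 ± 0.19 relative to the median gene, and 5 of its 6 probe sets were below. RPL22, which also binds viral and cellular RNAs, had levels of 9.94 and 10.01 and a difference of -0.22 ± 0.29, with 6 of 7 probe sets below. RPL18 had levels of 12.10 on the control array and 12.22 on the knockdown array, a difference of -0.17 ± 0.27 over 5 probe sets.

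RPL4, a core protein that lines the exit tunnel, was measured by 19 probe sets. Its levels were 11.63 on the control array and 11.76 on the knockdown array, and the difference was -0.15 ± 0.16, where 14 of the 19 lay under the median gene. RPL35, at the tunnel exit, stood at 11.22 and 11.37, a difference of -0.14 ± 0.24 over 4 probe sets. RPL3, which reaches toward the peptidyl transferase centre, stood at 12.11 and 12.31, a difference of -0.08 ± 0.14 over 12 probe sets. At the brightest probe set the direction turned for RPL4 (0.14), RPL35 (0.14) and RPL18 (0.14). With 0.28 taken off instead of 0.20, these values were 0.05, 0.05 and 0.06. Among the other large subunit genes the brightest measure also turned for RPL8 (0.12), RPLP1 (0.15), RPL28 (0.08) and RPL24 (-0.02). With 0.28 taken off they were 0.04, 0.06, -0.01 and -0.10, so RPL28 turned only through the value taken off.

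The closest agreement between probe sets was that of RPL23A, a protein at the tunnel exit. Its mean level was 11.42 on the control array and 11.75 on the knockdown array, and all 5 of its probe sets lay between 0.0 and 0.07 relative to the median gene, a mean of 0.04 ± 0.03. RPL28 was similarly tight, with -0.02 ± 0.08 over 9 probe sets, and RPL8 and RPL13A had -0.06 ± 0.11 over 7 and -0.06 ± 0.12 over 9. RPLP1, an acidic protein of the stalk that recruits elongation factors, lay at -0.01 ± 0.19 over 5. The other large subunit genes (RPL9, RPL21, RPL23, RPL24 and RPL30) lay between -0.11 and 0.02.

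The small subunit gave a like picture, with a median of -0.10 over 9 genes, 3 above and 6 below the median gene. RPS10, in the head of the subunit, had levels of 11.48 on the control array and 11.56 on the knockdown array and a difference of -0.21 ± 0.22, where 5 of its 7 probe sets lay under the median gene. RPS21 had levels of 10.58 and 10.68 and a difference of -0.19 ± 0.26, with 6 of 7 below. The brightest was among those below, at -0.07 with 0.28 taken off and at 0.01 with 0.20 taken off. RPS4Y1, a close paralog of RPS4X, had levels of 9.88 and 9.95 and a difference of -0.22 ± 0.18 over 11 probe sets.

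RPS6, the small subunit protein that S6 kinases phosphorylate, stood at 11.26 on the control array and 11.53 on the knockdown array, a difference of -0.02 ± 0.21 over 5 probe sets. RPS9, RPS23, RPS24 and RPS27 lay between -0.16 and 0.02. RPS9, with a mean of 0.02, turned at its brightest probe set, to -0.11 with 0.20 taken off and -0.19 with 0.28 taken off. RPS18 was the highest ribosomal protein gene at 0.21, with levels of 10.80 and 11.29, but this rests on a single probe set. It came to 0.28 after quantile normalization, past 1.2-fold. By the brightest probe set of each gene it came to 0.29, also past 1.2-fold. That is the same probe set, and only the value taken off differed, 0.20 instead of 0.28. Ribosomal protein genes have many processed pseudogenes of near-identical sequence, so their probe sets may pick up other transcripts.

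Across the 25 ribosomal protein genes the differences spread little, by an SD over genes that was not among the planned results. Their SD over genes was 0.10, against 0.23 for the 22 factor genes and 0.31 for all genes, and 0 of 25 were 1.2-fold from the median gene in either direction, against 35% of all genes. Ribosomal protein genes were bright, with a median level of 11.22 on the control array and 11.37 on the knockdown array. Of 43 other genes with a mean level of at least 11.29, the median of the ribosomal proteins, the median difference was -0.03, the SD 0.22, and 10 (23.3%) were past 1.2-fold. Of 341 others at or above the lowest ribosomal level, 9.92, the SD was 0.29 and 31.4% were past it. The part of brightness or array saturation in the narrow range was not tested. By the brightest probe set of each gene the SD was 0.17 for the ribosomal proteins and 0.38 for all genes. By that measure 5 of the 25 were past 1.2-fold, RPS18 on the high side and RPL21, RPS4Y1, RPS23 and RPS24 on the low side, against 45.5% of all genes. The 17 mitochondrial ribosomal protein genes of the table, which serve a separate ribosome, had an SD of 0.18 and a median of 0.01, and 3 of 17 were past 1.2-fold.

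**Figure D2:**
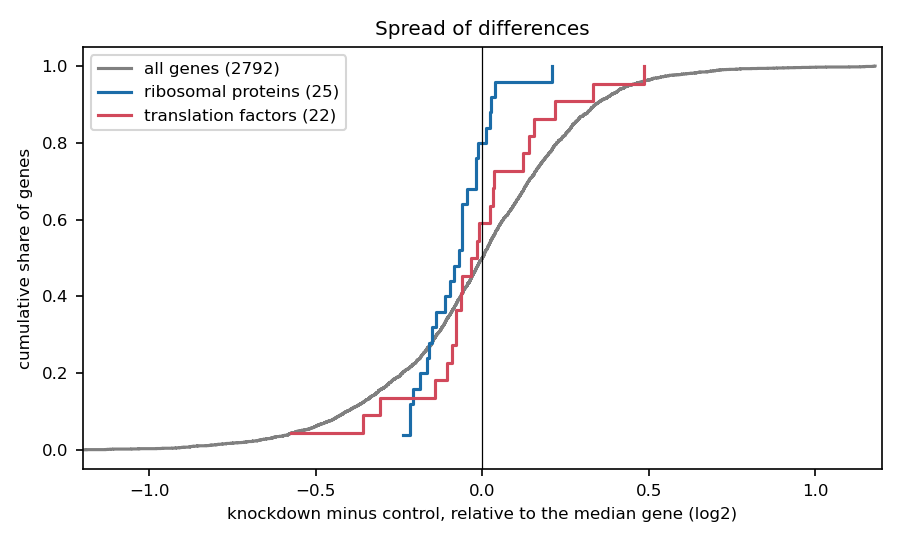
Cumulative share of genes (vertical axis) by difference, knockdown minus control relative to the median gene (horizontal axis, log2, drawn from -1.2 to 1.2), for 25 ribosomal protein genes, 22 factor genes and all 2792 genes. The ribosomal protein curve climbs from -0.24 to 0.21, with an SD of 0.10, and the curve of all genes is wider, with an SD of 0.31.

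Among the initiation factors the genes around eIF2 were the most spread. Of the 9 genes in the list of eIF2, eIF2B, eIF2 kinases and the factors that act with them, 5 were past 1.2-fold, 2 higher and 3 lower, against 35% of all genes. The median of the list was -0.06 and its SD over genes 0.34, against 0.31 over all genes, so its spread was like that of the table at large.

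Both eIF2 kinases in the table were lower. EIF2AK2 encodes PKR, the kinase activated by double-stranded RNA and induced by interferon. Its 16 probe sets ran from 6.78 to 10.19 (log2 intensity, median 8.10) on the control array and from 6.56 to 9.83 (median 7.98) on the knockdown array. All 16 lay below the median gene, between -0.95 and -0.25, and 15 of 16 were also lower in deposited values. The mean was -0.57 ± 0.19, or 1.49-fold lower, and 81.7% of the control level in deposited values. EIF2AK4 encodes GCN2, which senses uncharged tRNA. It had mean levels of 8.93 on the control array and 8.85 on the knockdown array, and all 7 of its probe sets lay below the median gene, between -0.82 and -0.04, with a mean of -0.36 ± 0.26. In deposited values it differed by only -0.07, and 3 of its 7 probe sets were higher on the knockdown array. The kinase genes EIF2AK1 and EIF2AK3 were not analysed here.

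The exchange factor eIF2B was represented by 3 of its subunits, which did not lie together. EIF2B2, the beta subunit, was the highest of the 47 genes by the mean over probe sets. Its 9 probe sets ran from 8.0 to 11.04 (median 9.65) on the control array and from 8.78 to 11.43 (median 10.27) on the knockdown array. All 9 were higher on the knockdown array and above the median gene, between 0.10 and 0.83, with a mean of 0.49 ± 0.23 or 1.40-fold. At its brightest probe set, the lowest of the 9, EIF2B2 came to 0.19 with 0.20 taken off, short of 1.2-fold. EIF2B5, the catalytic epsilon subunit, had levels of 8.24 and 8.68 and a difference of 0.16 ± 0.31, with 11 of 16 probe sets above the median gene. Its brightest probe set was past 1.2-fold at 0.33 with 0.20 taken off, but short of it at 0.25 with 0.28 taken off. EIF2B4, the delta subunit, had levels of 8.75 and 8.95 and a difference of -0.08 ± 0.29, with 5 of 11 above and the brightest past 1.2-fold at -0.29.

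eIF2 itself was measured through EIF2S3, its gamma subunit, which holds GTP and the initiator tRNA. The levels were 11.05 on the control array and 11.27 on the knockdown array, a difference of -0.06 ± 0.29 with 4 of 11 probe sets above the median gene and the brightest past 1.2-fold at -0.35. EIF2A, a separate factor that can deliver initiator tRNA without eIF2, stood at 9.46 and 9.89, a difference of 0.14 ± 0.28 with 14 of 17 above.

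The factors that act at start codon recognition and subunit joining lay on opposite sides. EIF5 encodes the activator of GTP hydrolysis by eIF2. Its 20 probe sets ran from 7.65 to 12.63 (median 10.40) on the control array and from 7.85 to 12.93 (median 11.07) on the knockdown array. All 20 were higher in deposited values and 19 of 20 lay above the median gene, with a mean of 0.33 ± 0.23 or 1.26-fold. At its brightest probe set EIF5 was only 0.10 above the median gene. EIF5B encodes the GTPase that joins the subunits. It had mean levels of 8.91 on the control array and 8.89 on the knockdown array, and 24 of its 28 probe sets lay below the median gene, with a mean of -0.31 ± 0.36. The probe sets of EIF5B disagreed more than those of the genes above: they ran from -0.93 to 0.37, 14 of 28 were higher in deposited values, and its brightest probe set was the lowest value among the 47 genes by that measure, -0.60.

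**Figure D3:**
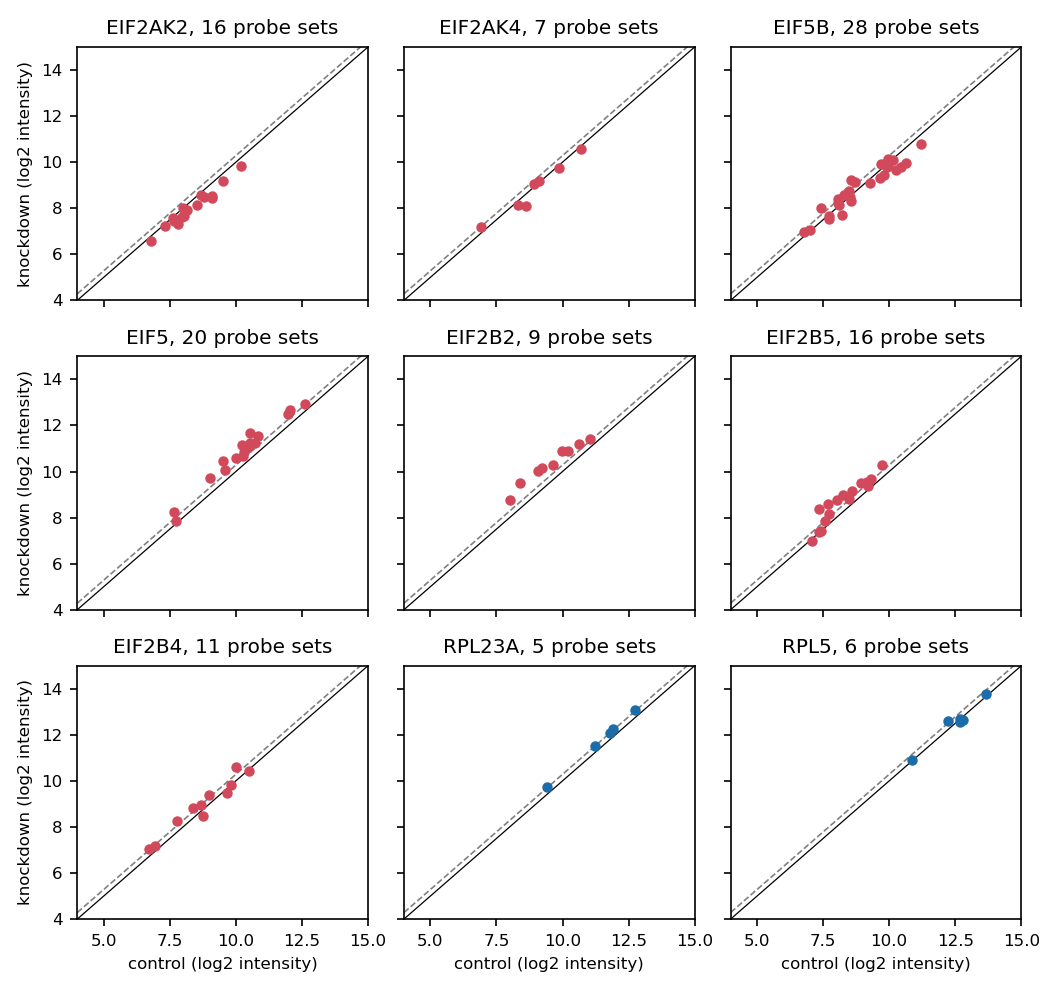
Each point is a probe set, placed by its log2 intensity on the control array (horizontal) and on the knockdown array (vertical), for 9 genes. The solid line marks equal levels and the dashed line the median gene, 0.28 higher. The 16 probe sets of EIF2AK2 lie below the dashed line, the 9 of EIF2B2 above it, and the 5 of RPL23A along it, while those of EIF5B and EIF2B4 scatter.

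The eIF3 scaffold, which holds the small subunit on the mRNA, lay at the median gene. EIF3A, the largest subunit, had levels of 9.95 on the control array and 10.27 on the knockdown array and a difference of 0.04 ± 0.25 over 25 probe sets. EIF3K lay at -0.01 ± 0.22 over 8, EIF3F at -0.08 ± 0.21 over 11 (0.14 at its brightest) and EIF3E at -0.11 ± 0.30 over 11. Of these 4 genes 0 were past 1.2-fold, against 35% of all genes.

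The helicase of the cap-binding complex, EIF4A1, had levels of 11.58 on the control array and 11.83 on the knockdown array and a difference of -0.03 ± 0.29 over 13 probe sets. A further 11 probe sets annotated to both EIF4A1 and its neighbour CD68 were lower, at -0.30 ± 0.26 with 1 of 11 above the median gene, and were not assigned to either gene. Its paralog EIF4A3, the helicase of the exon junction complex, stood at 9.48 and 9.89, a difference of 0.12 ± 0.25 over 13 probe sets. EIF4G2, a scaffold for initiation that does not bind the cap factor, stood at 11.47 and 11.78, a difference of 0.03 ± 0.22 over 24. In the list of eIF4F and its partners, the genes outside the 47 were PAIP1, a poly(A)-binding protein partner, at 0.18 ± 0.26, PDCD4, an inhibitor of eIF4A, at -0.14 ± 0.32, and the eIF4E-binding proteins EIF4EBP2 at 0.01 ± 0.27 and EIF4EBP3 at -0.34 ± 0.46 with 2 probe sets.

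The elongation factors were at or a little below the median gene. EEF1A1, which carries aminoacyl-tRNA to the ribosome, had levels of 13.23 on the control array and 13.38 on the knockdown array. All 5 of its probe sets lay below the median gene, between -0.32 and -0.03, with a mean of -0.14 ± 0.11, while its deposited difference was 0.14. Of the subunits of its exchange complex, EEF1G lay at -0.09 ± 0.15 over 9 probe sets and EEF1D at -0.06 ± 0.26 over 6. At its brightest probe set EEF1D was past 1.2-fold at -0.28. ETF1, the stop codon reader, stood at 9.62 and 10.12, a difference of 0.22 ± 0.37 with 9 of 13 probe sets above the median gene. Its probe sets ran from -0.51 to 0.71, and at the brightest it was below the median gene by -0.17, so its direction depends on which probe set is read. ABCE1, which recycles ribosomes after termination and is outside the 47, lay at 0.16 ± 0.28 over 17.

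The Argonaute genes that the prefix brought in had means near the median gene. AGO2, the Argonaute that can cut its targets, had levels of 9.10 on the control array and 9.41 on the knockdown array and a difference of 0.02 ± 0.18 over 25 probe sets. AGO3 had levels of 8.27 and 8.54 and a difference of -0.01 ± 0.25 over 23, and at its brightest probe set it was past 1.2-fold at -0.38.

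Consistency over probe sets was no more frequent than in the table. Among the 44 genes with at least 4 probe sets, 3 had all their probe sets below the median gene (EIF2AK2, EIF2AK4 and EEF1A1) and 2 had all of them above it (EIF2B2 and RPL23A). Over all 2742 genes with at least 4 probe sets the shares were 9.01% and 7.33%.

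Only the share of genes with a pyrimidine start was planned, and the split of differences below was not. By the pyrimidine start, the 24 genes that have it lay between -0.22 and 0.21, with a median of -0.06 and an SD over genes of 0.11, and 0 of 24 were past 1.2-fold. The 14 genes without it had a median of -0.05, an SD of 0.28 and a range of -0.57 to 0.49, and 5 of 14 were past 1.2-fold, close to the 35% of all genes. Within the factors alone, the 6 with a pyrimidine start (EEF1A1, EIF2A, EIF2S3, EIF3F, EIF3K and EIF4G2) had an SD of 0.10 and the 12 without it one of 0.30. EIF4G2 has the run at its downstream annotated start, 1 base in, and not at its upstream start. Outside the 47 genes no such contrast was seen: 439 genes of the table with a pyrimidine start and 1895 without it both had an SD of 0.30, and 147 and 656 of them (33.5% and 34.6%) were past 1.2-fold. By the brightest probe set of each gene the counts among the 47 were 6 of 24 and 6 of 14, against 45.5% of all genes. In deposited values they were 10 of 24 and 7 of 14, against 58.2% of all genes. The split at 1.2-fold did not hold under either of these settings.

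**Figure D4:**
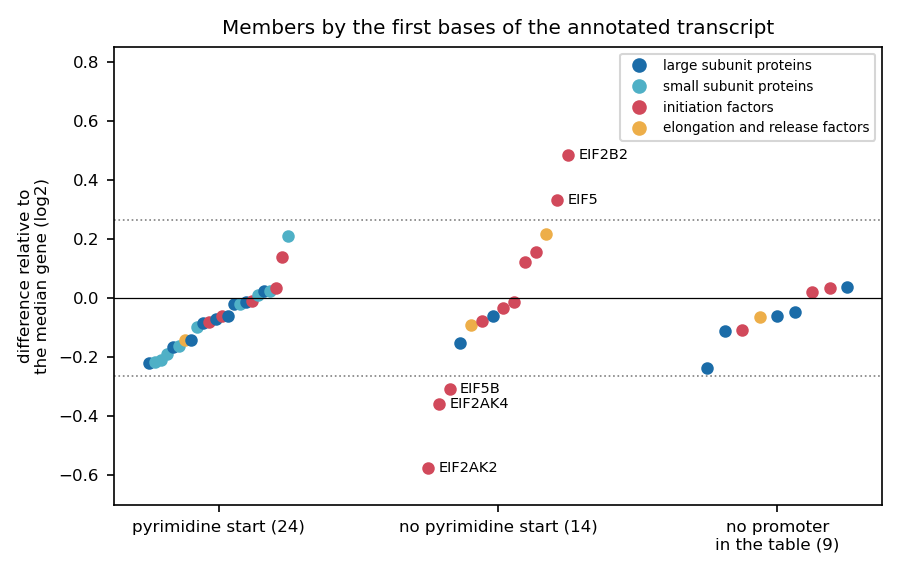
Difference of each gene relative to the median gene (vertical axis, log2), sorted within each column and coloured by role. The columns hold 24 genes with a pyrimidine run within 3 bases of an annotated start, 14 without it, and 9 with no entry. The dotted lines mark 1.2-fold, and the 5 named genes beyond them are all in the middle column.

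Genes that supply or control the translation machinery were set beside it. The list of mTORC1 and S6 kinase control had 8 genes in the table, a median of 0.08, and 1 gene past 1.2-fold, against 35% of all genes. That gene was RICTOR, a subunit of mTORC2, at 0.70 ± 0.30 with all 38 probe sets above the median gene. MTOR lay at 0.01 ± 0.24 over 62 probe sets, and the S6 kinase genes RPS6KB2 and RPS6KA3 at 0.20 ± 0.19 over 8 and 0.12 ± 0.18 over 21. Of the integrated stress response list only PSAT1 and SLC7A5 were in the table, at 0.35 ± 0.30 and 0.30 ± 0.25.

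Of 6 aminoacyl-tRNA synthetase genes, which charge tRNAs, 2 were past 1.2-fold on the high side and 1 on the low side, with a median of 0.17. Over all genes 16.4% were past it on the high side and 18.5% on the low side. The methionyl enzyme, listed as MARS, was higher by 0.53 ± 0.23 at all 29 probe sets and AARS1 by 0.39 ± 0.18 at all 23, while VARS1 was lower by -0.27 ± 0.22 with 22 of 24 below the median gene. Of 33 ribosome biogenesis genes 5 were past 1.2-fold on the high side and 5 on the low side, 10 in all or 30.3%, near the 35% of all genes, and their median was 0.13 with 23 above the median gene. At the low end stood POLR1A, the largest subunit of RNA polymerase I, at -0.86 ± 0.22 with all 36 probe sets below the median gene, and at the high end SDAD1, a large subunit assembly factor, at 0.64 ± 0.25 with all 20 above.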

How the data were processed

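Per the labels' protocols, RNA was isolated with Trizol, converted and amplified with a whole-transcript kit and labelled with biotin. The authors deposited natural log values of 45200 probe sets on 2 arrays; the scale is unstated and was read from the values. On the knockdown array 1154 of 41367 exponentials below 2000 fell in the fullest of 500 residue bins (modulo 0.5), against a mean of 82.7, while read as log2 the fullest held 117 against 90.4. Values were divided by the natural log of 2. The normalization, software and genome build were not given in the sources used here.

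Probe sets with 1 symbol (42575) were averaged per gene. Of 2795 symbols, 331 were updated through RefSeq (GRCh38.p14), giving 2792 genes. Genes were counted at 1.2-fold and 1.5-fold from the median gene. With 1 array per group no test was made, and precision is limited by the number of arrays. Full values went to the 8 highest and 8 lowest genes with at least 4 probe sets, to paralogs and to the eIF2, eIF4F and release factor genes, by a written rule, and ranges to the rest. Members, lists and rules were chosen with earlier results of these data known. The averaging and the removal of the median were checked on simulated data with independent noise for each probe set. That check does not cover errors shared across an array. Python 3.11.15, numpy 2.4.6, pandas 2.3.3 and statsmodels 0.14.6 were used. Alternatives covered the value per gene, offset, normalization, filters, membership and scale.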

Additional observations from a re-analysis of the deposited data

How the results depend on the processing

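With 1 array per condition, these settings show only how the same 2 arrays read under 12 alternatives, 2 of them chosen after seeing the data. Of 156 summary values compared, 135 stayed within 0.1 (log2) or, for counts, within 1.5 times, and 21 moved. Some of these could not change, such as the SD over ribosomal protein genes where only the offset was dropped. That SD and the counts by pyrimidine start were not among the planned results. Of the differences of single genes, 506 stayed within the gene's SD over probe sets (0.1 for RPS18) and 52 moved. The 5 genes past 1.2-fold kept their direction in every alternative in which they had a value. EIF2AK2 was too dim for the filter on the brightest probe set, and 2 of its 16 probe sets reached the median level. In deposited values EIF2AK4 and EIF5B differed by only -0.07 and -0.02. In deposited values, with no removal of the median gene difference, the median of all members was 0.22, of the large subunit 0.22, of the small subunit 0.19, of initiation factors 0.27 and of elongation and release factors 0.21. There 44 members were above 0, 19 were at least 1.2-fold higher and 1 lower (53.2% and 5.01% of all genes), 2 were at least 1.5-fold higher, and 10 with a pyrimidine start were past 1.2-fold. By the brightest probe set 11 members were at least 1.2-fold lower (23.8% of all genes), 1 was at least 1.5-fold lower and 6 with a pyrimidine start were past 1.2-fold. After quantile normalization 1 member was at least 1.5-fold lower and 1 with a pyrimidine start was past 1.2-fold (34.5% of all genes). After loess these counts were also 1 and 1 (34.6% of all genes past 1.2-fold). With probe sets at or above the median level 1 was at least 1.5-fold lower. The share of all genes past 1.5-fold was not computed for the alternatives. Values read as log2 gave 1 at least 1.2-fold higher, 1 at least 1.2-fold lower and 2 without a pyrimidine start past it. The causes were not tested. No paired analysis was possible because each group has 1 array.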
